A study of Mus musculus with 4 samples.

Results

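The dual specificity phosphatases of the Dusp family and the Sprouty and Spred proteins are inhibitors that restrain MAP kinase signalling, and their transcripts were compared in blood stem and progenitor cells with and without Klf7. A gene belonged to the set when the only symbol of its probe set was Dusp followed by a number, Spry1 to Spry4 or Spred1 to Spred3. This rule found 31 genes, 24 Dusp, 4 Spry and 3 Spred, among the 19938 named genes on the arrays. They were covered by 34 probe sets, since Dusp8, Dusp12 and Spred2 had 2 each, and every gene was represented by its brighter probe set unless stated.

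MAP kinases (ERK, JNK and p38) are switched on by phosphorylation of a threonine and a tyrosine in the activation loop, downstream of receptors such as Kit, Flt3 and the cytokine receptors that keep stem and progenitor cells alive and dividing. MAP kinase phosphatases of the Dusp family remove both phosphates, and several are early response genes transcribed because the kinases are active, which closes a feedback loop. Sprouty and Spred proteins act higher up, between the receptor and Raf, and are also induced by the pathway they inhibit. The remaining Dusp genes encode atypical family members that lack the kinase-binding domain, among them the catalytically inactive Dusp27. Some of them act on RNA or on other proteins.

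RNA came from bone marrow cells in the Lin- c-Kit+ Sca-1+ (KLS) gate, which takes in the stem cells of blood and their earliest progeny. They came from chimeric mice on a C57Bl/6 background whose marrow was founded by fetal liver cells and mixed Klf7+/+ with Klf7-/- cells, so both groups developed in chimeric hosts. The knockout group had 2 arrays (Klf7-/-, replicates 1 and 2) and the wild-type group 2 arrays (Klf7+/+, replicates 1 and 2), and the series is titled as a comparison of their expression. The labels give no age, no number of mice or donor embryos, no description of the deletion and no method of telling the genotypes apart in the sort. Whether arrays of a group are separate animals is thus unknown, and p-values capture just the variation among these arrays, which could be technical. Values are probe set intensities on the log2 scale, and differences are knockout minus wild type with the moderated standard error (SE) of limma, n = 2 per group. Probe brightness depends on the probes, so levels were not compared between genes. Arrays have no read depth, and the 4 arrays limit the precision of every value.

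Several measurements of the whole series bear on these values. Klf7 itself, the deleted gene, read 6.59 and 6.18 (knockout) against 5.95 and 6.10 (wild type), and a probe set outside the deleted part would check nothing. Xist, the RNA of the inactive X chromosome, was the only probe set of 28939 past the threshold (limma, Benjamini-Hochberg adjusted p = 0.0454), and the Y-linked genes Uty, Kdm5d and Eif2s3y lay in the opposite direction, so donor sex and genotype cannot be told apart here. Of 12 stem and progenitor markers measured, 10 had positive differences, 8 of which were higher with no overlap (14.5% of named genes were), and 1 marker was lower with none (18.6% were), with a median difference of 0.29. Their summed intensity was 6335 and 6465 in knockout against 5153 and 4719.7 in wild type. The sort antigen gene Kit read 10.12 and 9.92 in knockout against 9.55 and 9.71 in wild type, while the Sca-1 gene was not analysed here. For other blood cells, the markers without overlap were 2 of 11 for granulocytes, 4 of 9 for monocytes, macrophages and dendritic cells, 2 of 8 for B cells, 3 of 10 for T and NK cells, 2 of 8 for erythroid cells and 2 of 6 for megakaryocytes, beside 33.2% of named genes. The summed granulocyte markers were 4449.6 and 2373 in knockout against 3566 and 3076.5 in wild type, and the summed B cell markers were 670.7 in knockout replicate 1 and 309.5 to 370.9 on the others. The summed monocyte, macrophage and dendritic markers were 710.9 and 705.8 in knockout against 762.8 and 816.2 in wild type. The part of these markers in the differences below was not tested. In bulk arrays, fewer cells of a type and less RNA per cell cannot be told apart.

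No Dusp, Spry or Spred gene passed the threshold, with limma adjusted p between 0.945 and 1.00 (0 of 31, where 0.00346% of all probe sets passed). Before adjustment, Dusp23 alone was under the level of 0.05, where 5.01% of all probe sets were. The differences ran from -0.42 (Dusp4) to 0.49 (Dusp23), so none of the 31 was 2-fold apart, against 1.46% of named genes. Differences below 0 were found for 17 genes and above 0 for 14, with a median of -0.04, beside -0.03 over all named genes, 55.0% of which lay below 0. The groups did not overlap for 6 of the 31 genes (19.4%), whereas 33.2% of all named genes did not overlap. Dusp1, Dusp4, Dusp5, Dusp21 and Spry3 were lower in both knockout arrays, where 18.6% of named genes were, and Dusp23 was higher, where 14.5% were. For 27 genes the 95% confidence interval lay within a 2-fold difference in either direction, and for Dusp12, Dusp19, Spred2 and Spred3 it reached beyond.

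**Figure D1:**
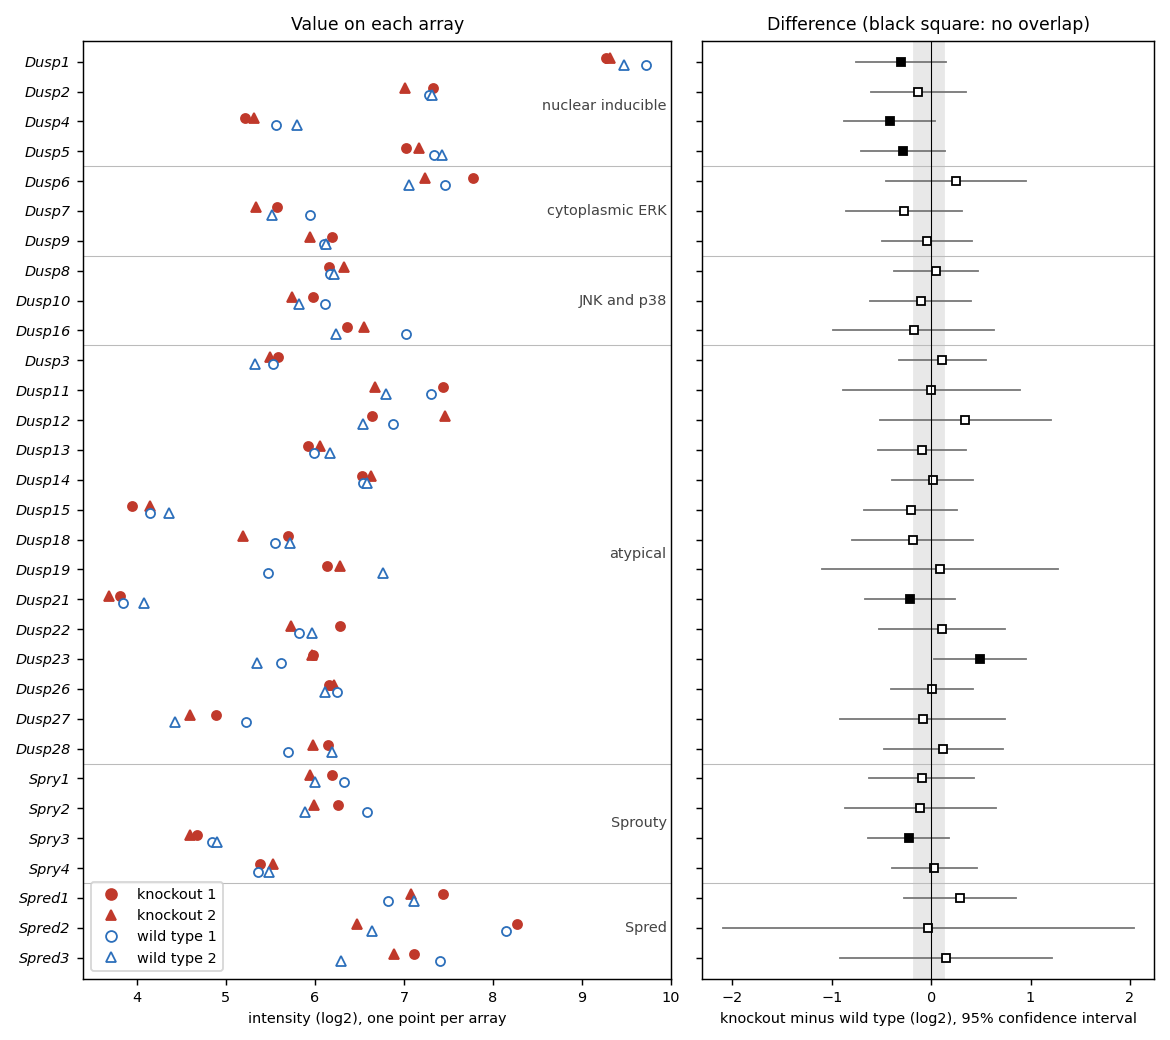
Left, the log2 intensity of each of the 31 genes on each array, with knockout arrays in filled red and wild-type arrays in open blue, replicate 1 as circles and replicate 2 as triangles. Right, knockout minus wild type (log2) with its 95% confidence interval; filled squares mark the 6 genes whose groups do not overlap, and the grey band spans the quartiles of all named genes (-0.18 to 0.13).

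The plot of every member by array shows the nuclear inducible phosphatases Dusp1, Dusp4 and Dusp5 to the left in knockout, and wide scatter within groups for Spred2, Spred3, Dusp19 and Dusp12. For 26 of the 31 genes (83.9%) the gap between the arrays of one group exceeded the difference between the groups, as it did for 78.5% of all named genes. The exceptions were Dusp1, Dusp4, Dusp5, Spry3 and Dusp23.

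The nuclear inducible phosphatases are the early response arm of the family, and of the 6 role groups described here they had the largest share of members without overlap. All 4 had negative differences, where 55.0% of named genes lay below 0. Of the 4, 3 were lower without overlap, Dusp1, Dusp4 and Dusp5, beside 18.6% of named genes. The median difference of the 4 was -0.29, beside -0.03 over all named genes, and none passed the threshold (limma adjusted p = 0.945 to 0.975).

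The stretches upstream of Dusp1, Dusp5 and Dusp2 are shown because these early response genes are known for signal-dependent transcription and both Dusp1 and Dusp5 were lower without overlap here. Each is the 250 bases before an annotated start site in RefSeq (build GRCm38.p6), written 5' to 3' on the strand of the gene. Capitals mark matches to the cyclic AMP response element TGACGTCA, to its shorter core TGACG (or its reverse complement) and to the CArG box, the recognition site of serum response factor. Dusp4 had no entry in the promoter table.
Dusp1, chr17:26508473-26508722, minus strand: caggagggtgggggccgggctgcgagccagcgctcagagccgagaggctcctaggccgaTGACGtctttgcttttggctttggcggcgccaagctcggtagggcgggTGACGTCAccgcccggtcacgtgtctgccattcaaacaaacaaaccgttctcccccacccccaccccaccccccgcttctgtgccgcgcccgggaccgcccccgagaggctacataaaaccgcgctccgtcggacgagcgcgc
Dusp5, chr19:53528895-53529144, plus strand: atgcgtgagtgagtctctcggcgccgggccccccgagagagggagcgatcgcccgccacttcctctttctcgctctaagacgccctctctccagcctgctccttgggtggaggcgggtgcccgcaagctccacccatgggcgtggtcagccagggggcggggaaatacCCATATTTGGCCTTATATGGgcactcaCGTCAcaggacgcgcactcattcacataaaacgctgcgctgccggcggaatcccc
Dusp2, chr2:127335909-127336158, plus strand: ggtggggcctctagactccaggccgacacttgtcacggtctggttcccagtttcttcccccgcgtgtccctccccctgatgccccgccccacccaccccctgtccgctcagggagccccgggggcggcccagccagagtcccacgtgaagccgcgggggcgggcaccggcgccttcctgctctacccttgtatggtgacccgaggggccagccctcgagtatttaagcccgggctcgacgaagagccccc
The Dusp1 window held a full TGACGTCA starting 143 bases before the start site, with a further TGACG at 191 bases. The Dusp5 window held 2 CArG boxes side by side, starting 82 and 72 bases before the start site, followed by a reverse TGACG core at 55 bases. The Dusp2 window had none of these and held only GC boxes (GGGCGG), 3 of them. GC boxes, which are not capitalised above, were also in the Dusp1 window (3) and the Dusp5 window (1).

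Of the 31 genes, 23 had a promoter window. The full TGACGTCA occurred in 2 of them, Dusp1 and Dusp8, and in 1.55% of all 32851 windows searched on both strands. Dusp8 held 2 such matches and overlapped between the groups on its brighter probe set, with a difference of 0.05. Members were counted by gene, when any window of the gene matched, while the shares are over all windows. The CArG box occurred in Dusp5 alone, against 1.47% of all windows. The core TGACG, which is also part of every full element, occurred in 7 of the 23 and in 17.8% of all. GGGCGG occurred in 16 of the 23 and in 32.7% of all. The CACCC box CCACACCC, a form of the motif that Kruppel-like factors bind, was in none of the 23 windows and in 3.2% of all. Other forms of the CACCC box were not searched, so the windows may still hold sites for these factors. These are matches of letters in short windows and do not show that a factor binds there.

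Dusp1 encodes a nuclear phosphatase of p38, JNK and ERK that is transcribed within minutes of many stimuli. It read 9.27 and 9.32 in the knockout arrays against 9.72 and 9.47 in wild type. The knockout arrays were nearly equal, and both lay below the lower wild-type array. The difference was -0.30 ± 0.17 (95% confidence interval -0.76 to 0.15; limma adjusted p = 0.950), and it stood at -0.18 without wild-type replicate 1, the brightest array.

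Dusp5 encodes a nuclear phosphatase specific for ERK, which it also holds in the nucleus. It read 7.02 and 7.17 in knockout against 7.34 and 7.43 in wild type. Both groups were tight, with gaps of 0.14 and 0.09 between replicates, and did not overlap. The difference was -0.29 ± 0.16 (95% confidence interval -0.71 to 0.14; limma adjusted p = 0.950), which is 1.22-fold lower in knockout.

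Dusp4 encodes another nuclear phosphatase, active on ERK and JNK. Its knockout arrays were at 5.22 and 5.31 and its wild-type arrays at 5.56 and 5.80. The mean over all arrays was dimmer than the median named gene at 5.77. Again both knockout arrays lay below both wild-type arrays. The difference of -0.42 ± 0.17 (95% confidence interval -0.87 to 0.04; limma adjusted p = 0.945) was the most negative of the 31. An offset of 32 added before the logarithm, which damps dim probe sets, brought it to -0.24.

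Dusp2, first described in activated lymphocytes, was the exception in this group. It read 7.32 and 7.01 in knockout against 7.28 and 7.32 in wild type, so knockout replicate 1 matched the wild-type arrays and only knockout replicate 2 was low. The difference of -0.13 ± 0.18 (limma adjusted p = 0.975) became 0.02 without knockout replicate 2.

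**Figure D2:**
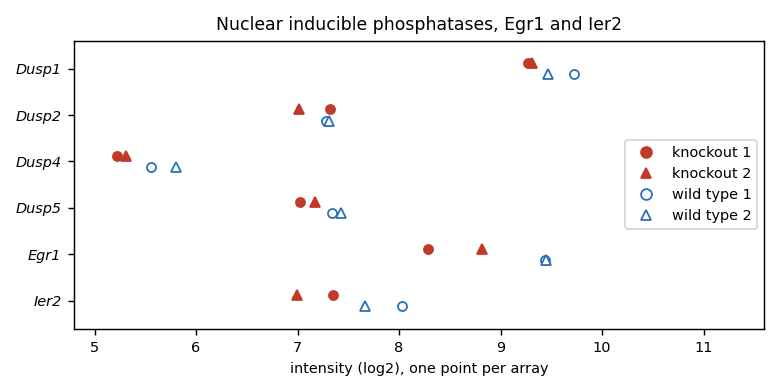
Log2 intensity on each array for the 4 nuclear inducible phosphatases and for Egr1 and Ier2, a pair of other ERK-responsive early genes; filled red symbols are knockout arrays and open blue symbols wild-type arrays, circles replicate 1 and triangles replicate 2. In every row except Dusp2, both knockout arrays lie to the left of both wild-type arrays. For Egr1 and Ier2 the separation was fixed by the choice, since only output genes without overlap could be picked.

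Of the ERK output genes, Egr1 and Ier2 were also lower in both knockout arrays, while Myc, Egr2 and Ier3 overlapped between the groups. Egr1 and Ier2 were picked for large differences without overlap, so their separation was fixed by the choice. Egr1, a zinc finger transcription factor, read 8.29 and 8.81 in knockout against 9.44 and 9.45 in wild type, and Ier2, another early response gene, read 7.35 and 6.997 against 8.03 and 7.66. The differences were -0.89 ± 0.23 for Egr1 and -0.68 ± 0.22 for Ier2, both with a limma adjusted p of 0.945. That early response genes were lower in these knockout arrays was known from these data when the phosphatases were chosen. Dusp1 and the other nuclear inducible phosphatases belong to such genes themselves, so their values are not independent support for that pattern.

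The cytoplasmic, ERK-preferring phosphatases Dusp6, Dusp7 and Dusp9 did not share a direction. All 3 overlapped between the groups, where 33.2% of named genes did not, and their median difference was -0.04. Dusp6, a phosphatase of ERK that is widely used as a readout of ERK activity because ERK induces it, read 7.78 and 7.23 in knockout against 7.46 and 7.05 in wild type. In both groups replicate 1 was the brighter array, and the gaps between replicates, 0.54 and 0.41, exceeded the difference of 0.25 ± 0.27 (95% confidence interval -0.46 to 0.96; limma adjusted p = 0.966). The difference was -0.02 without knockout replicate 1. Dusp7, its close relative, read 5.58 and 5.34 in knockout against 5.94 and 5.51 in wild type, for a difference of -0.27 ± 0.22 that was -0.057 without wild-type replicate 1 and -0.49 without wild-type replicate 2. The X-linked Dusp9, known from placenta, read 6.19 and 5.94 against 6.10 and 6.13, a difference of -0.04 ± 0.17.

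The phosphatases that prefer JNK and p38, Dusp8, Dusp10 and Dusp16, also overlapped in every case, where 33.2% of named genes did not. Their median difference was -0.10. Dusp10, which restrains both kinases, read 5.98 and 5.74 in knockout against 6.11 and 5.82 in wild type, for a difference of -0.10 ± 0.19. Dusp16, a JNK phosphatase that shuttles between nucleus and cytoplasm, read 6.36 and 6.55 in knockout against 7.03 and 6.23 in wild type. Its wild-type arrays stood on either side of the knockout arrays, and the difference of -0.18 ± 0.31 became 0.22 without wild-type replicate 1. Dusp8 was steady on its brighter probe set, at 6.16 and 6.32 against 6.16 and 6.21, a difference of 0.05 ± 0.16. Its dimmer probe set gave -0.22 ± 0.17 without overlap, and the mean of both gave -0.08, so the direction for Dusp8 depends on the probe set.

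Over the 10 classical MAP kinase phosphatases, 8 differences were negative, where 55.0% of named genes lay below 0. The median was -0.15, beside -0.03 over all named genes, with 3 genes without overlap, beside 33.2% of named genes. The signs of Dusp2, Dusp6, Dusp8, Dusp9, Dusp10 and Dusp16 turned with an array left out.

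Sprouty genes overlapped in 3 of 4 cases, where 33.2% of named genes did not overlap. Spry1, which limits growth factor signalling and is known from resting muscle stem cells, read 6.19 and 5.95 in knockout against 6.33 and 6.00 in wild type. Spry2 read 6.26 and 5.99 against 6.58 and 5.89. For both genes replicate 1 was the brighter array in either group, and the differences of -0.10 ± 0.20 and -0.11 ± 0.29 were smaller than the gaps between replicates. Spry4 read 5.38 and 5.52 in knockout against 5.36 and 5.48 in wild type, for a difference of 0.03 ± 0.16. The confidence interval for Spry4, -0.40 to 0.46, still allows a change of up to 1.38-fold upward or 1.32-fold downward.

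Spry3, the least studied Sprouty gene, was the one without overlap. It read 4.68 and 4.60 in knockout against 4.84 and 4.90 in wild type, for a difference of -0.23 ± 0.15 (limma adjusted p = 0.953). The gene is assigned to the X chromosome, as are Dusp9 and Dusp21, and its probe set is dimmer than the median gene. Without these 3 genes, 4 of the remaining 28 did not overlap, beside 33.2% of named genes, and the median difference was -0.01.

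The Spred genes were the most scattered. Spred1, which brings the Ras inhibitor neurofibromin to the membrane, read 7.44 and 7.08 in knockout against 6.82 and 7.12 in wild type. Knockout replicate 1 was above the rest and wild-type replicate 1 below, and the difference was 0.29 ± 0.21 (limma adjusted p = 0.954). Spred3 read 7.11 and 6.88 in knockout against 7.41 and 6.29 in wild type, so the wild-type arrays lay on both sides of the knockout arrays. Its difference of 0.15 ± 0.40 turned to -0.41 without wild-type replicate 2.

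Spred2, an inhibitor of Ras and ERK signalling described in early hematopoiesis, varied most of all the genes. Its brighter probe set read 8.27 and 6.47 in knockout against 8.15 and 6.64 in wild type. Replicate 1 was high and replicate 2 low in both groups (the knockout arrays were 1.80 apart), while the difference between the groups was -0.03 ± 0.79 (95% confidence interval -2.10 to 2.04). The second probe set behaved otherwise, at 7.14 and 8.10 in knockout against 7.06 and 5.30 in wild type. There knockout replicate 2 was the highest array and wild-type replicate 2 the lowest, and the difference was 1.44 ± 0.68 (95% confidence interval -0.34 to 3.22; limma adjusted p = 0.946). Without wild-type replicate 2 it was 0.56, and the mean of both probe sets gave 0.71, so no direction for Spred2 can be read from these arrays.

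**Figure D3:**
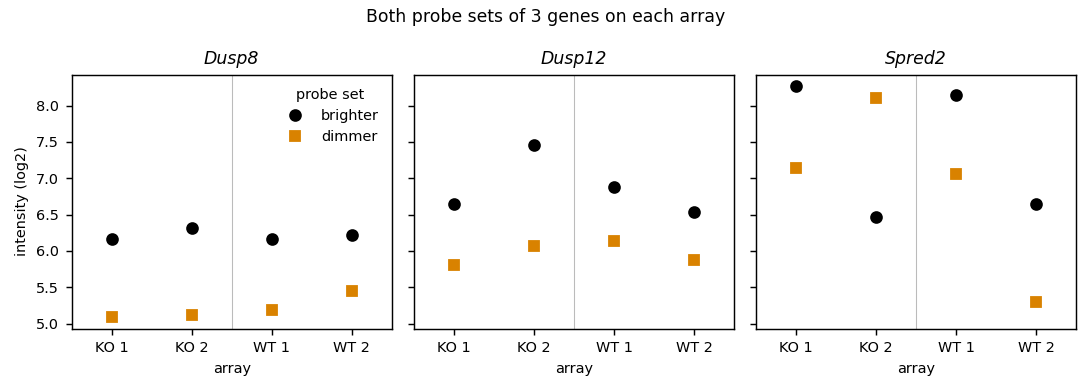
Log2 intensity of the brighter (black circles) and dimmer (orange squares) probe set of Dusp8, Dusp12 and Spred2 on the knockout (KO) and wild-type (WT) arrays, where brighter refers to the mean over the 4 arrays. The Spred2 probe sets part on knockout replicate 2, where the one that is dimmer on average reads 8.10 and the other 6.47.

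Of the 14 atypical phosphatases, 12 overlapped between the groups and 2 did not (14.3%, beside 33.2% of named genes). Their median difference was 0.01. Dusp23, a small phosphatase without a kinase-binding domain, read 5.98 and 5.97 in knockout against 5.62 and 5.35 in wild type. Both knockout arrays lay above both wild-type arrays and differed from each other by only 0.01. The difference of 0.49 ± 0.17 (95% confidence interval 0.03 to 0.95) had an unadjusted p of 0.0403 and a limma adjusted p of 0.945. It corresponds to 1.41-fold and stood between 0.36 and 0.63 with any single array left out and at 0.31 with an offset of 32 added before log2.

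Dusp21, an X-linked gene whose protein is associated with mitochondria, was lower without overlap, at 3.81 and 3.69 in knockout against 3.84 and 4.08 in wild type. The difference of -0.21 ± 0.17 lay between dim readings, and the upper knockout array was only just below the lower wild-type array. Its relative Dusp18 read 5.70 and 5.19 in knockout against 5.55 and 5.72 in wild type, with only knockout replicate 2 apart, a difference of -0.19 ± 0.23. Dusp15 was at 3.94 and 4.15 in knockout against 4.15 and 4.36 in wild type, so the groups met, and its difference was -0.21 ± 0.18.

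Dusp12, which carries a zinc-binding domain, read 6.65 and 7.46 in knockout against 6.88 and 6.54 in wild type. Only knockout replicate 2 stood apart, the difference of 0.34 ± 0.33 became -0.06 without it, and the second probe set gave -0.07 ± 0.19. Dusp19, a phosphatase tied to the JNK pathway, was close in the knockout arrays at 6.13 and 6.28 and spread widely in the wild-type arrays at 5.47 and 6.76. Its difference was 0.09 ± 0.45, and without wild-type replicate 1 it was -0.56. Dusp11, which removes phosphates from the ends of RNA, read 7.43 and 6.67 in knockout against 7.30 and 6.80 in wild type, again brighter in replicate 1 of either group, with a difference of 0.0021 ± 0.34.

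Dusp14, which acts in T cell receptor signalling, was the steadiest gene of the set, spanning 0.09 over all 4 arrays (6.53 and 6.62 in knockout, 6.54 and 6.59 in wild type). Its difference was 0.02 ± 0.15, with a 95% confidence interval of -0.39 to 0.42. Dusp26 was similar, at 6.16 and 6.22 against 6.25 and 6.12, a difference of 0.01 ± 0.16. The signs of Dusp11, Dusp14 and Dusp26 turned with repeated quantile normalization, so no direction is given for them. Dusp3, a small phosphatase of ERK and JNK, read 5.58 and 5.50 in knockout against 5.53 and 5.33 in wild type, for a difference of 0.11 ± 0.17. Dusp22, known as a regulator of JNK and of T cell signalling, read 6.28 and 5.73 against 5.82 and 5.96, a difference of 0.11 ± 0.24. In both cases the wild-type values lay among or beside the knockout values.

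The remaining atypical genes also overlapped. Dusp13, which has products in testis and muscle, differed by -0.09 ± 0.17, with values between 5.92 and 6.17. The catalytically inactive Dusp27, known from muscle, differed by -0.08 ± 0.32 and its wild-type arrays, at 5.22 and 4.43, enclosed the knockout arrays at 4.89 and 4.59. Dusp28 differed by 0.12 ± 0.23, with wild-type arrays at 5.70 and 6.19 on either side of knockout arrays at 6.15 and 5.98.

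The other genes of the pathway were read from lists of receptors, adaptors, kinases, outputs and further inhibitors. No gene on them passed the threshold in either direction, and adjusted p ran from 0.945 upward in the limma fit. Before adjustment, limma p was under 0.05 for 1 receptor, 2 adaptor or Ras, 0 Raf, MEK or ERK, 2 JNK or p38, 3 output and 1 inhibitor gene, where 5.01% of all probe sets were. Some genes of these lists were not analysed here.

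Among 24 receptors that signal to ERK, 8 did not overlap (3 higher and 5 lower in knockout), beside 33.2% of named genes, and the median difference was -0.04. The insulin receptor gene Insr read 7.98 and 8.43 in knockout against 9.80 and 9.43 in wild type, for a difference of -1.41 ± 0.24 (limma adjusted p = 0.945). Flt3, the receptor of early lymphoid and multipotent progenitors, read 9.89 and 9.73 in knockout against 9.49 and 9.17 in wild type, for a difference of 0.48 ± 0.19. Insr was thus lower, and Flt3 higher, in both knockout arrays.

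Of 22 adaptors and regulators of Ras, 8 did not overlap (36.4%, near the 33.2% of named genes), with a median of -0.0013. Gab1, a docking protein for growth factor receptors, read 7.24 and 7.44 in knockout against 5.69 and 6.97 in wild type, for a difference of 1.01 ± 0.45, with wild-type replicate 1 well below the other 3 arrays. Rasa3, which switches Ras off, read 6.79 and 6.70 against 7.44 and 7.23, a difference of -0.59 ± 0.17.

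The 12 Raf, MEK and ERK-cascade kinases measured, which are the targets and neighbours of Sprouty, Spred and the ERK phosphatases, had a median of 0.11, and 4 did not overlap (33.3%, near the 33.2% of named genes). The MEK gene Map2k2 differed by -0.33 ± 0.19 and the scaffold gene Ksr1 by 0.17 ± 0.18.

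JNK and p38 kinases were the list with the largest share of genes without overlap, 13 of 19 (68.4%, beside 33.2% of named genes), divided into 7 higher and 6 lower, with a median of -0.06. The JNK gene Mapk9 read 8.13 and 7.54 in knockout against 7.31 and 6.71 in wild type, for a difference of 0.82 ± 0.31. Map2k4, a kinase that activates JNK, lay the other way at 5.75 and 6.25 against 6.36 and 7.09, a difference of -0.73 ± 0.33. The phosphatases that prefer these kinases, Dusp8, Dusp10 and Dusp16, overlapped on their brighter probe sets. Dusp1 and Dusp4, which also act on kinases of this kind, did not overlap.

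Of 20 ERK output genes, 9 did not overlap (45.0%, beside 33.2% of named genes). These were 7 lower and 2 higher in knockout, beside 18.6% and 14.5% of named genes. The list's median was -0.08, and members such as Myc (0.12 ± 0.19), Egr2 (-0.02 ± 0.17) and Ier3 (-0.06 ± 0.16), chosen after their values were seen, overlapped between the groups; Egr1 and Ier2, given above, are its named members. Of 20 other feedback inhibitors of receptor signalling, 7 did not overlap (near the 33.2% of named genes) and the median was -0.01. Socs2, a cytokine-induced inhibitor, differed by -0.47 ± 0.27, and Tesk1, a kinase that binds Sprouty proteins, by -0.47 ± 0.17.

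**Figure D4:**
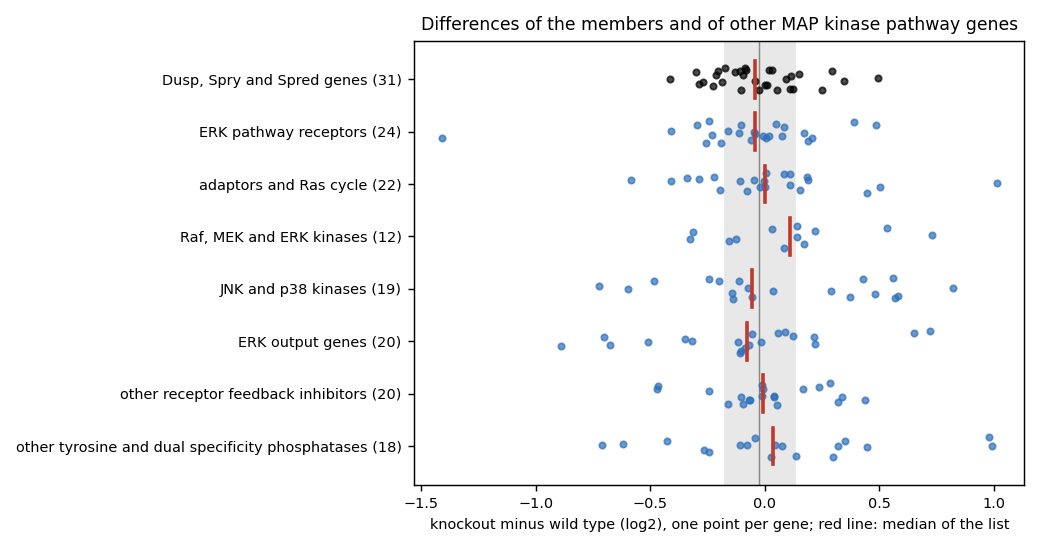
Knockout minus wild type (log2) for the 31 Dusp, Spry and Spred genes (black) and for the genes of each pathway list (blue), one point per gene, with the list size in brackets. Red bars are list medians; the grey band spans the quartiles of all named genes and the grey line their median (-0.03), and the members lie between -0.42 and 0.49.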

How the data were processed

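Knockout and wild-type KLS cells were measured on 4 Affymetrix arrays. Per the labels' protocols, RNA amplification used the NuGen Ovation system, with a biotin label. The authors deposited 1 table of intensity values per probe set and array. The submitters' processing notes name Affymetrix Expression Console and RMA without settings. The deposited intensity values reach 17720.8 and were taken as linear, so log2 was applied; array medians were 51.01 to 52.26 and no further normalization was made.

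The first 6615 of 35554 rows, which precede the first annotated probe set, were taken as controls and left out, an assumption, leaving 28939. The platform annotation (2016) gave 1 symbol for 21789, several for 1621 and none for 5529; 21698 were matched by Entrez ID to RefSeq (GRCm38.p6) for symbols and chromosomes. Genes were represented by the brightest probe set over the 4 arrays. Limma 3.58.1 in R 4.3.3 (lmFit, eBayes, two-sided, Benjamini-Hochberg over all probe sets, threshold 0.05, 2 residual degrees of freedom) gave every difference, and the steps were tested on simulated data. Groups do not overlap when both values of one lie beyond both of the other. Lists are described by counts and medians. All members were named; of each pathway list, up to 2 members above the median gene level with the largest difference without overlap. The members and lists were chosen with earlier results of these data known. The alternatives tried were a dim probe set filter, 2 normalizations, an offset of 32, 2 variance models, the replicate block, each array left out, mean probe sets, and X-linked members left out; keeping the leading probe sets was added after seeing the data. Protein sequences were not used here.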

Additional observations from a re-analysis of the deposited data

How the results depend on the processing

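Differences as small as these turned easily. Of 395 values of single members under alternatives, 359 kept their direction and stayed short of the threshold and 36 turned, 30 of them with an array left out; the cause was not tested. The members that turned with an array left out had differences of -0.38 to 0.39 (Dusp11), -0.17 to 0.39 (Dusp22), -0.022 to 0.52 (Dusp6), -0.25 to 0.039 (Dusp10), -0.064 to 0.75 (Dusp12), -0.030 to 0.062 (Dusp14), -0.44 to 0.065 (Dusp18), -0.29 to 0.023 (Dusp2), -0.056 to 0.073 (Dusp26), -0.48 to 0.31 (Dusp27), -0.030 to 0.13 (Dusp8), -0.17 to 0.080 (Dusp9), -0.93 to 0.87 (Spred2), -0.26 to 0.068 (Spry1), -0.45 to 0.24 (Spry2), -0.041 to 0.10 (Spry4), -0.57 to 0.22 (Dusp16), -0.56 to 0.74 (Dusp19), -0.12 to 0.37 (Dusp28), -0.18 to 0.0027 (Dusp13) and -0.41 to 0.71 (Spred3), and the second Dusp12 probe set -0.20 to 0.066. Cyclic loess gave -0.019 for Dusp11; repeated quantile normalization gave -0.040 for Dusp11, -0.013 for Dusp14 and -0.0016 for Dusp26; the mean of all probe sets gave -0.082 for Dusp8 and 0.71 for Spred2. The other 10 members kept their sign in every alternative in which they were present, Dusp1, Dusp4, Dusp5 and Dusp23 among them. Their size still varied with an array left out, from -0.49 to -0.057 (Dusp7), 0.015 to 0.21 (Dusp3), 0.12 to 0.47 (Spred1), -0.31 to -0.10 (Dusp15) and -0.33 to -0.097 (Dusp21).

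The members without overlap numbered 3 of the 23 that passed the filter on dim probe sets. Leaving out an array gave 18 to 19, since 3 values separate more easily. The share of all named genes was not computed under these settings, so neither count can be set against 33.2%. The members' median was -0.17 to 0.027 with an array left out, Sprouty -0.23 to 0.021, the JNK and p38 phosphatases -0.25 to 0.039, Spred -0.41 to 0.71, other feedback inhibitors -0.063 to 0.11 and other phosphatases -0.11 to 0.094. The nuclear inducible median was -0.24 with the offset of 32, and the cytoplasmic one 0.10 under the filter, which leaves 2 genes. The Raf, MEK and ERK median was 0.14 under the filter, 0.14 with cyclic loess and 0.061 with the offset.

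Probe sets past the threshold fell from 1 to 0 with repeated quantile normalization, the offset, either variance model, the leading probe sets kept and each array left out (0 to 0; the fit then takes the spread of the single remaining array from the other group). With the replicate number as a block the count was 0, no other call changed, and same-numbered arrays deviated together only weakly across probe sets (r = 0.0434); the labels do not say that equal numbers share a mouse. Signal over background was not used, and the 8 members that failed the dim filter were Dusp3, Dusp4, Dusp7, Dusp15, Dusp21, Dusp27, Spry3 and Spry4.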

Other observations

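Other tyrosine and dual specificity phosphatases outside the MAP kinase feedback set were read from a separate list of 18 measured genes. None passed the threshold (limma adjusted p from 0.945 upward). Before adjustment, limma p was under 0.05 for 3 of the 18, where 5.01% of all probe sets were. The groups did not overlap for 10 genes (4 higher and 6 lower in knockout), beside 33.2% of named genes. Ssh2, a phosphatase that activates the actin-severing protein cofilin, read 7.83 and 7.76 in knockout against 6.56 and 7.05 in wild type, for a difference of 0.99 ± 0.22 (SE, n = 2 per group). Cdc25c, which releases the mitotic kinase Cdk1, read 5.87 and 5.44 against 6.32 and 6.42, a difference of -0.71 ± 0.21. Dupd1, a dual specificity phosphatase whose symbol the rule does not match, was chosen after its values were seen; it read 5.98 and 6.16 in knockout against 6.02 and 6.23 in wild type, for a difference of -0.06 ± 0.18.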
